A study of Homo sapiens with 8 samples.

Results

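Untreated H1650 cells carried 23 clusters of closely spaced open-chromatin regions, which were followed here through siRNA transfection. A region counted here was a merged peak interval overlapped by a peak of each of the 2 untreated lists. Neighbouring regions were stitched where the gap between them was 12.5 kb or less, and the regions of stitched clusters of 5 or more are the members. The rule gave 130 member regions among 17444 shared regions, or 0.745%, and the other 17314 shared regions serve as the comparison. The members were selected on the peak positions of both untreated lists, so their number, spacing and listing in untreated cells are descriptions and were not tested.

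H1650 is an established human non-small cell lung cancer line, and chromatin was assayed by ATAC-seq, in which a transposase inserts sequencing adapters into accessible DNA. The 8 libraries fall into 4 groups of 2 replicates. In siMena11a, cells received a mix of siRNAs, each matching exon 11a of the transcript. In siMena, they received a pool of siRNAs against ENAH, the gene of hMENA, and in siControl a non-targeting pool. Each transfection used 20 nmol/L of siRNA and a lipid reagent, while untreated cells received neither. All groups share the same line and medium. The series concerns the loss of hMENA11a, the epithelial isoform of an actin regulator, in lung cancer. No label says that the replicates came from separate cultures, so every p-value below measures only the spread between these libraries. Transcript levels, and so the depth of the knockdown, were not analysed here, nor were markers of the line, because no annotation of the files' hg19 build was used.

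Open chromatin marks DNA that is not wrapped tightly in nucleosomes, such as active promoters, enhancers and insulators. Enhancers that lie close together on a chromosome are often stitched into one unit, and such units, when they also carry strong marks of active histones, are known for sitting near genes that define a cell type. The 12.5 kb gap follows that practice. The lists here hold accessibility alone, so the clusters are called dense clusters and not by the name of any class of enhancer.

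In each transfected group the list of replicate 2 was far shorter than that of replicate 1, and siMena had the shortest list within each replicate number. The lists held 35472 and 2832 peaks in siMena11a replicates 1 and 2, 14678 and 1020 in siMena, 27304 and 5231 in siControl, and 34782 and 22424 in untreated cells. The genome-wide background, which is the lowest local background of a list and scales with its number of tags and with the length to which tags were extended, was 0.881 and 2.54 tags in siMena11a, 0.725 and 2.88 in siMena, 0.935 and 2.27 in siControl, and 0.538 and 1.09 in untreated cells. Replicate 2 of each group thus had a higher background over a typical position and fewer peaks, and how tags were extended in each library was not tested. Every listing below is given by library for that reason.

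Most shared regions stood alone. The 17444 regions formed 14906 stitched units, of which 12816 were single regions, 1753 held 2, 264 held 3 and 50 held 4. Beyond the limit of 5 there were 15 clusters of 5 regions, 5 of 6, 2 of 7 and 1 of 11. The clusters spanned 14.5 to 66.4 kb, with a median of 30.5 kb and a sum of 739 kb, and the members covered 69569 bp of it. Between 5.81% and 16.3% of a span lay in members, with a median of 9.31%, so a dense cluster was mostly DNA that neither untreated list called. The 107 gaps inside clusters ran from 77 to 12297 bp with a median of 6926 bp. Of these, 16 were of 1000 bp or less and 24 exceeded 10 kb.

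Just inside the limit, clusters of 5 had a median span of 28.0 kb and a median summed fold of 67.3, where the fold is the authors' ratio of tags at a summit to the local background and the sum runs over both untreated lists. Clusters of 4, just outside it, had a median span of 20.7 kb and a median summed fold of 55.1. The median fold of a region was 7.34 and 5.83 in untreated replicates 1 and 2 inside clusters of 5, and 6.88 and 5.89 inside clusters of 4. Inside the clusters 17 gaps were longer than 11 kb, and 1 gap next to a member lay between 12.5 and 15 kb.

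The clusters were spread over 12 assembled chromosomes and 1 unlocalized contig. Chromosome 7 held 22 members in 4 clusters, or 1.88% of its 1173 shared regions, chromosome 2 held 17 in 3, and chromosome 16 held 16 in 3, or 2.33% of its 688. Chromosome 1, with 1618 shared regions, held 5 members, or 0.309%. Chromosomes 4, 6, 12, 10, 9 and 19 held none, although they had 917, 871, 845, 781, 740 and 565 shared regions. The contig, chr9_gl000199_random, stood apart, since 6 of its 10 shared regions were members. A contig of this kind is sequence assigned to chromosome 9 without a place on it. Results that rest on its cluster are therefore given with it and without it, as 124 members on assembled chromosomes.

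Clusters are numbered by their rank in region number, with ties broken by the summed fold. The rule for naming took the 10 clusters with the most regions and the 10 with the highest summed fold, which share 7 and together make 13. The largest, cluster 1, lay on chromosome 11 from 126209785 to 126276173 and held 11 regions over 66.4 kb with a summed fold of 141. Cluster 2, on chromosome 14 from 95973471 to 96014469, and cluster 3, on chromosome 2 from 74667606 to 74710550, held 7 regions each, with summed folds of 100.2 and 95.7. These 3 led both rankings.

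The clusters of 6 regions followed. Cluster 4 lay on chromosome 20 from 56262334 to 56293879 (summed fold 86.0), cluster 5 on chromosome 16 from 4968758 to 5008618 (77.5), and clusters 6 and 7 on chromosome 7 from 22589601 to 22618341 (71.9) and from 157082110 to 157111382 (69.2). The contig cluster, cluster 8, spanned 60643 to 107389 and had the lowest summed fold of the 23, 50.6. Among the clusters of 5, cluster 9 on chromosome 7 from 20369029 to 20405601 ranked 4 by fold, with 91.2. Cluster 10 on chromosome 15 from 93346928 to 93383743 had 84.0, and cluster 11 on chromosome 3 from 119864359 to 119896382 had 82.5. Cluster 12 on chromosome 15 from 85113896 to 85144374 had 82.3, and cluster 13 on chromosome 5 from 140070812 to 140105995 had 78.4. The number of regions in a cluster therefore did not fix its rank by fold, as clusters 8 and 9 show.

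No single region carried a cluster. The strongest region held 16.8% to 34.8% of the summed fold, with a median of 25.4%, and exceeded the weakest by 1.28 to 2.87 times, with a median of 2.03. It was one of the 2 outermost regions in 9 clusters and an inner one in 14. The 46 outermost members had a median fold of 7.69 and 6.09 in untreated replicates 1 and 2, against 6.88 and 5.40 for the 84 inner ones. Members were about as wide as other regions, with a median of 509 bp (240 to 1056 bp) against 536 bp.

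**Figure D1:**
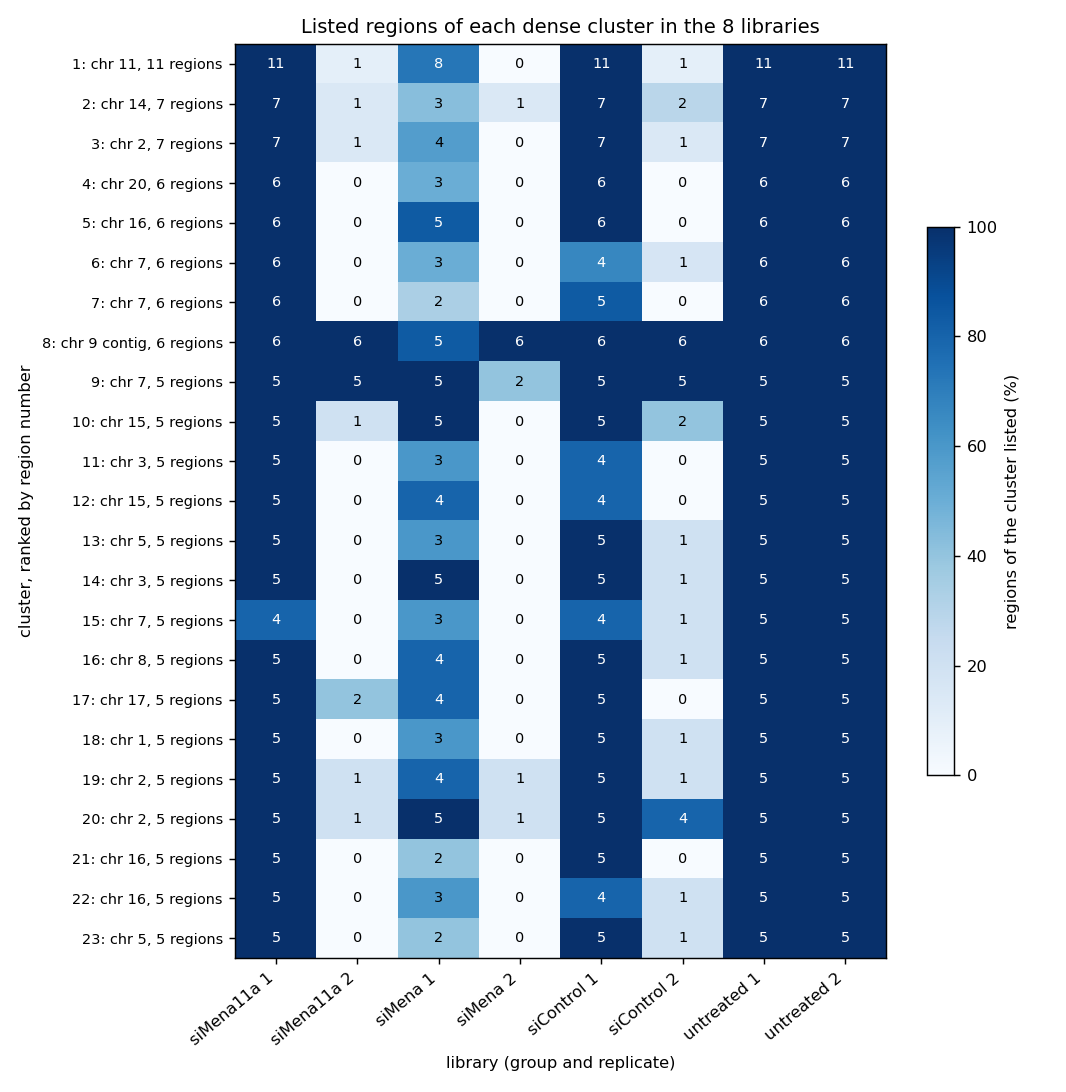
Regions of each of the 23 dense clusters listed in each library, as a number in the cell and as percent of the cluster in colour, with clusters ranked by region number. The replicate 1 columns are nearly full, except siMena replicate 1 with 88 of 130, and in the replicate 2 columns of transfected cells clusters 8 and 9 stand out.

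Nearly all members were still listed in replicate 1 of siMena11a and siControl, and few in replicate 2 of any transfected group. The counts were 129 and 19 of 130 in siMena11a replicates 1 and 2, 88 and 11 in siMena, and 123 and 30 in siControl, where both untreated lists hold all 130 by the rule. As shares these were 99.2% and 14.6% in siMena11a, 67.7% and 8.46% in siMena, and 94.6% and 23.1% in siControl. The exact Clopper-Pearson 95% intervals were 95.8% to 100% and 9.03% to 21.9% in siMena11a, 58.9% to 75.6% and 4.30% to 14.6% in siMena, and 89.2% to 97.8% and 16.1% to 31.3% in siControl, and they cover counting error over regions only. The replicates of every transfected group differed by more than any pair of groups within a replicate number. The lists of replicate 1 were nested at the members. All 88 members of siMena replicate 1 were among the 123 of siControl replicate 1, and all 123 were among the 129 of siMena11a replicate 1, in the same order as the lists' lengths.

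Listing by replicate number left a graded picture. Of the 130 members, 88 were in all 3 transfected replicate 1 lists, or 67.7%, against 62.2% of the other shared regions. A further count, of members in no replicate 2 list, was 98, or 75.4%, against 72.7% of the others. In all 3 replicate 2 lists were 10 members, or 7.69%, against 3.13% of the others. Without the contig, 4 of 124 members, or 3.23%, were in all 3 replicate 2 lists. Only 2 members were in a replicate 2 list while missing from at least 1 replicate 1 list, or 1.54%, against 3.05% of the other shared regions. Counted over the 6 transfected lists, 1 member was in none, 6 were in 1, 33 in 2, 59 in 3, 13 in 4, 9 in 5 and 9 in 6. For 1, 2, 3, 4 and 5 lists the members' shares were 4.62%, 25.4%, 45.4%, 10.0% and 6.92%. Those of all shared regions were 8.05%, 24.5%, 40.2%, 13.3% and 8.31%. The background share listed in all 6 was 3.1% of the 17444 shared regions, against 6.92% of members, and the background share listed in none was 2.53%, against 0.769% of members. On assembled chromosomes 4 of 124 members, or 3.23%, were in all 6 lists, near the background, and 1, or 0.806%, was in none.

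The member in no transfected list belonged to cluster 15 on chromosome 7, where it spans 95933507 to 95933806, and had folds of 7.41 and 5.65 in untreated replicates 1 and 2. Its neighbour, from 95933041 to 95933406, had folds of 8.33 in siMena11a replicate 1, 4.64 in siMena replicate 1 and 8.33 in siControl replicate 1, against 7.34 and 7.74 in untreated cells. Regions only 100 bp apart in the same cluster thus fared differently in these lists.

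Of the 9 members in all 6 lists, 5 belonged to the contig cluster, 2 to cluster 9, and 1 each to clusters 2 and 19. The member of cluster 2, from 96000699 to 96001494, had folds of 11.7 and 5.60 in siMena11a replicates 1 and 2, 10.7 and 4.28 in siMena, 10.5 and 6.36 in siControl, and 11.5 and 11.0 in untreated cells. Its transfected replicate 2 folds lay below its replicate 1 folds in each group. The member of cluster 19 (chromosome 2, 20431283 to 20431856) had folds of 7.13 and 4.82 in siMena11a, 5.62 and 3.76 in siMena, 7.01 and 4.82 in siControl, and 7.13 and 7.73 in untreated cells, with the same ordering of replicates among transfected libraries.

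Cluster 1, the largest, lost most of its regions from the replicate 2 lists. It had 11 and 1 regions listed in siMena11a, 8 and 0 in siMena, 11 and 1 in siControl, and 11 in each untreated list. The 1 region that stayed in replicate 2 of siMena11a and siControl was also the strongest in untreated cells, from 126243223 to 126244094. Its folds were 12.6 and 4.11 in siMena11a, 6.42 in siMena replicate 1, 11.3 and 3.86 in siControl, and 12.7 and 11.0 in untreated cells, and siMena replicate 2 did not list it. The 3 regions missing from siMena replicate 1 had untreated replicate 1 folds of 5.98, 6.89 and 8.27, so they were not simply the weakest of the cluster.

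Clusters 8 and 9 were the most fully listed. Cluster 9 had 5 and 5 regions listed in siMena11a, 5 and 2 in siMena, 5 and 5 in siControl and 5 in each untreated list, or 90.0% of the possible listings in the 6 transfected libraries. Its region from 20392337 to 20393108 had folds of 12.3 and 5.12 in siMena11a, 8.19 and 3.95 in siMena, 12.2 and 7.24 in siControl, and 13.0 and 11.0 in untreated cells. Behind these folds were 62 and 30 tags at the summit in siMena11a, 28 and 22 in siMena, 60 and 41 in siControl, and 63 and 65 in untreated cells. The contig cluster had 6 and 6 regions listed in siMena11a, 5 and 6 in siMena, 6 and 6 in siControl and 6 in each untreated list, or 97.2% of the possible listings. Across the other 21 clusters the share ran from 36.1% in cluster 7 to 70.0% in cluster 20. Outside clusters 8 and 9, 118 and 8 of 119 members were listed in siMena11a, 78 and 3 in siMena, and 112 and 19 in siControl. Those 2 clusters, chosen here after their values were seen, supplied 8 of the 11 members of siMena replicate 2. Over the 23 clusters, listing did not follow size: Spearman's rho of the share of possible listings was -0.08 with region number and -0.02 with summed fold, and -0.18 and 0.12 over the 22 clusters without the contig, as descriptions over clusters that share the same libraries.

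**Figure D2:**
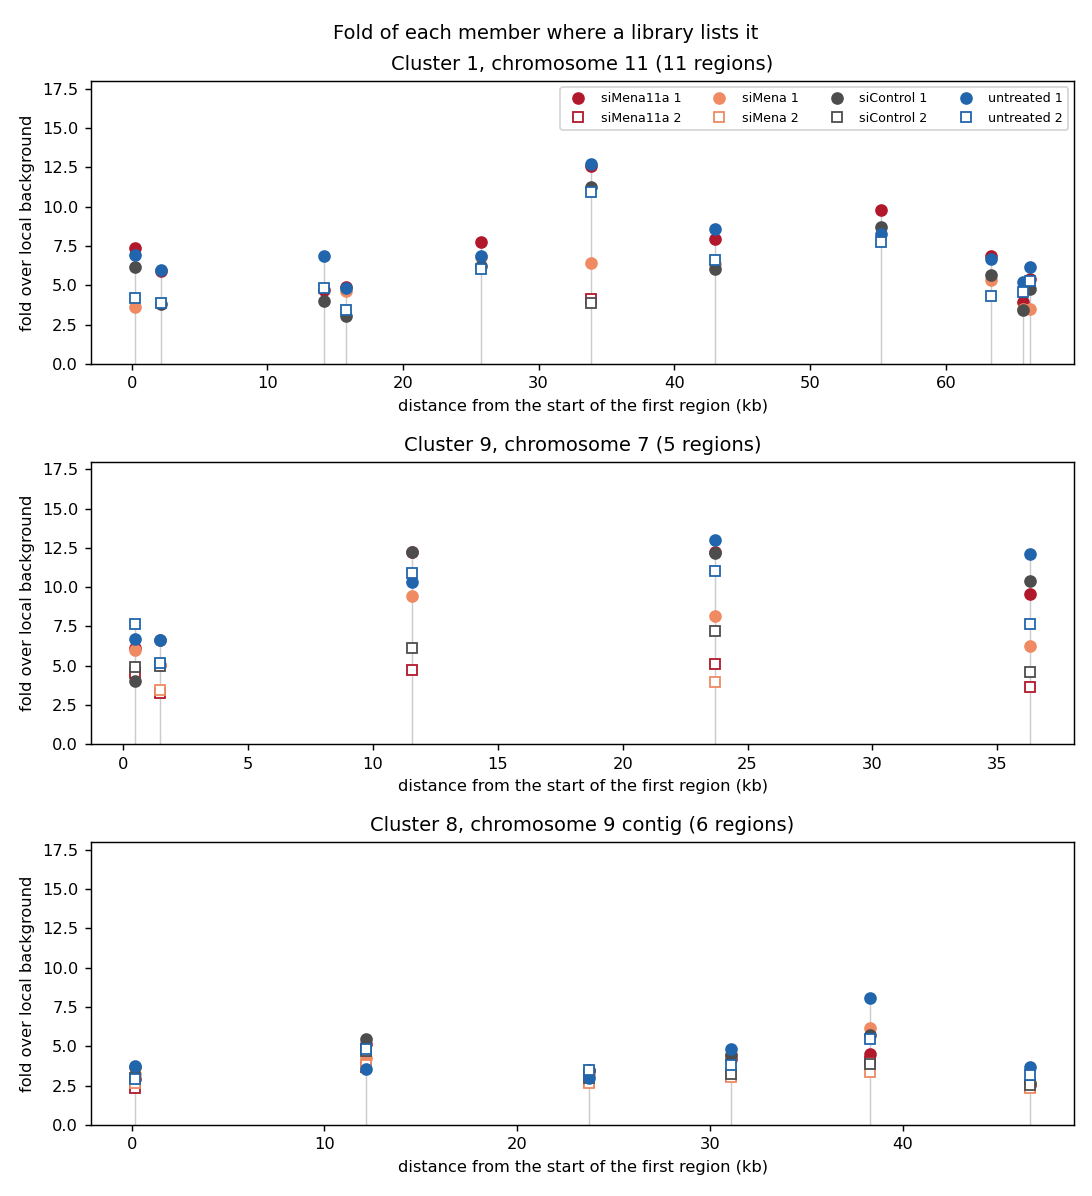
Fold over local background of each member, where a library lists it, against its distance in kb from the start of the first region, for clusters 1, 9 and 8. Filled circles are replicates 1 and open squares replicates 2, and colours mark the groups, with points drawn over each other where folds coincide. In clusters 1 and 9 the open squares of transfected libraries are few or low, while in the contig cluster every library lists nearly every region at a fold of 2.34 to 8.08.

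The contig cluster stood apart from the other 22 in its high background, and its median fold was the lowest of the listed clusters in each of the 8 libraries. Its folds ran from 2.34 to 8.08. Its regions nonetheless held many tags: at the one from 91449 to 92066 the summit held 68 and 123 tags in siMena11a, 52 and 140 in siMena, 63 and 110 in siControl, and 39 and 79 in untreated cells. The local background at this region was 15.6 and 39.1 tags in siMena11a, 10.9 and 44.9 in siMena, 13.5 and 33.6 in siControl, and 7.26 and 19.9 in untreated cells. Divided by the genome-wide background, the cluster's median local background was 15.2 and 13.9 in siMena11a, 12.3 and 14.6 in siMena, 12.1 and 13.5 in siControl, and 11.6 and 16.3 in untreated cells. The other 22 clusters had medians of 4.51 and 1.99 in siMena11a, 3.50 and 1.67 in siMena, 4.16 and 2.06 in siControl, and 5.85 and 3.30 in untreated cells. Their ratio was lower in replicate 2 than in replicate 1 in all 4 groups, and that of the contig cluster was not lower in siMena, siControl or untreated cells. The highest of the other clusters reached 13.5, in untreated replicate 1 only, where cluster 19 passed the contig. The part of this high background in the full listing of the cluster was not tested.

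**Figure D3:**
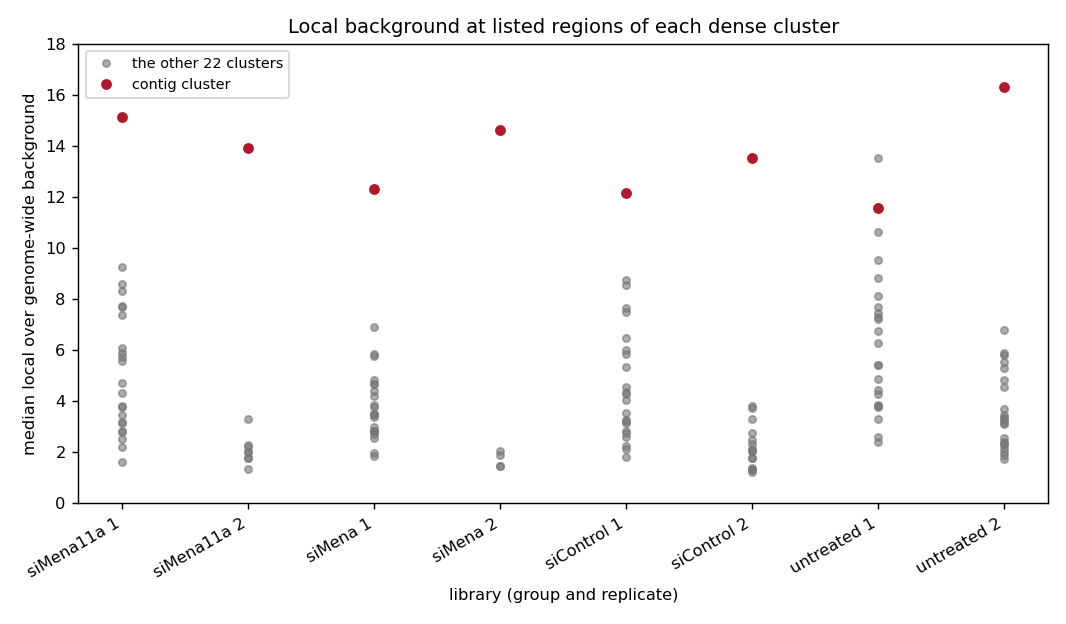
Median local background of the listed regions of each cluster, divided by the genome-wide background of the library, for the contig cluster (red) and the other 22 clusters (grey, only where the library lists a member). The contig cluster lies between 11.6 and 16.3 in all 8 libraries, above every other cluster except 1 in untreated replicate 1.

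Members were listed more often than other shared regions in 5 of the 6 transfected libraries, by a margin that did not pass the test. The share of members listed was above that of others in siMena11a replicates 1 and 2 (99.2% against 95.6%, and 14.6% against 13.4%), in siMena replicates 1 and 2 (67.7% against 63.2%, and 8.46% against 3.49%) and in siControl replicate 1 (94.6% against 89.8%). It was below it in siControl replicate 2 (23.1% against 25.4%). The mean difference was 2.81 percentage points, higher in 5 of 6 libraries (two-sided exact sign-change permutation over the 6 transfected libraries, p = 0.09375, where the smallest possible is 0.03125). On assembled chromosomes the mean difference was 0.689 points (exact permutation p = 0.71875). It was 5.22 points where a peak had to cover at least 50% of a region (exact permutation p = 0.03125), but -1.33 points with a gap of 25000 bp and -0.965 points with clusters of 3 or more. The 6 libraries share the same regions and the same line, and 5 such tests on members against others were made. Those of fold, tags and local background are linked, since the fold is computed from the tags and the background. After Benjamini-Hochberg adjustment over the 5 exact permutation tests, the p-value for listing was 0.09375 and that of each of the other 4 was 0.0391.

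Listing also did not rise step by step with cluster size. In siMena11a replicate 1 it was 99.2% in clusters of 5 or more, 94.5% in clusters of 3 to 4, 95.1% in pairs and 95.9% among single regions. In siMena replicate 1 the shares were 67.7%, 58.7%, 60.4% and 64.3%, and in siControl replicate 1 they were 94.6%, 89.4%, 88.9% and 90.1%. Clusters of 5 or more lay highest in each of these 3 libraries, and both classes between them and single regions lay below single regions, which was not tested. In the replicate 2 lists the shares in clusters of 5 or more, without the contig, were 10.5% in siMena11a, 4.03% in siMena and 19.4% in siControl, against 14.0%, 3.64% and 26.0% of single regions.

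**Figure D4:**
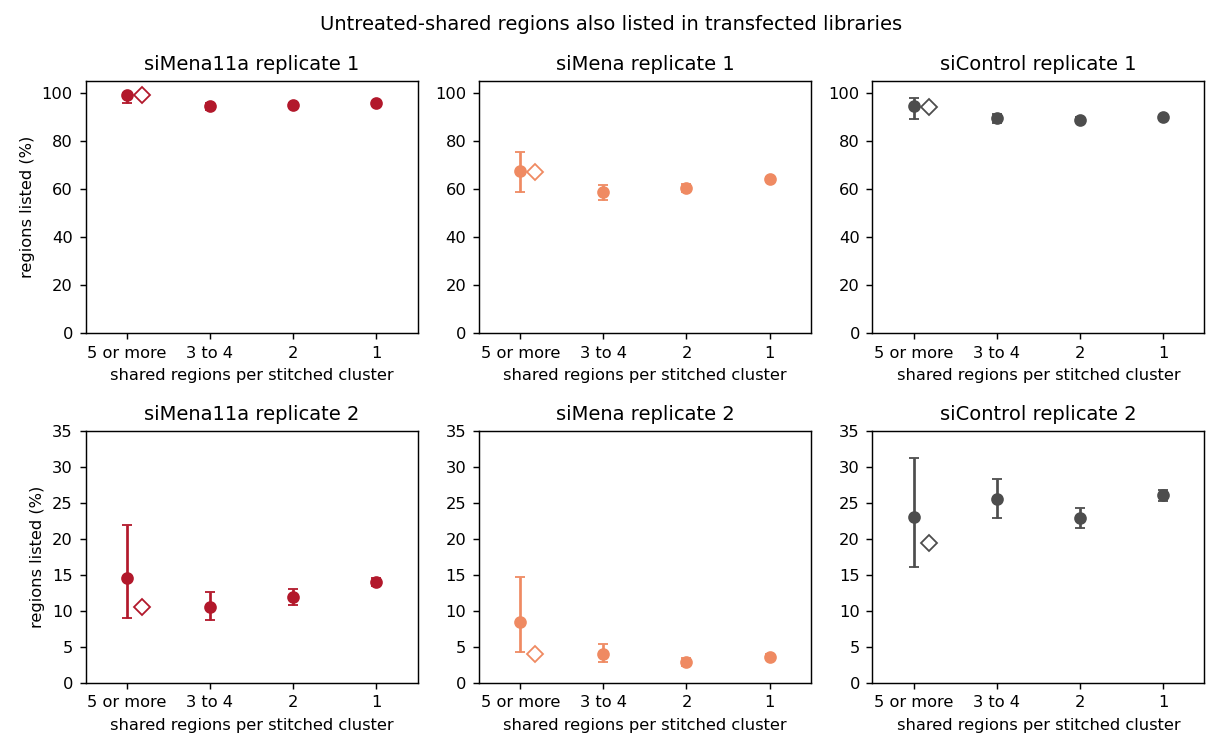
Percent of untreated-shared regions also listed in each transfected library, by the number of regions in the stitched cluster. Filled circles carry exact 95% binomial intervals, open diamonds are clusters of 5 or more on assembled chromosomes, and the axis of the lower panels ends at 35%. The intervals of clusters of 5 or more are wide, and in the replicate 2 panels the diamonds lie below the circles of the same class.

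At the regions a library lists, members had lower median folds than other regions in all 6 transfected libraries. The listed members were 129 and 19 in siMena11a replicates 1 and 2, 88 and 11 in siMena, and 123 and 30 in siControl. Regions missing from a list have no fold there, and the part of this in the lower folds was not tested. The median fold was 6.88 and 3.97 in siMena11a replicates 1 and 2, against 8.11 and 4.75 for others, 5.38 and 3.43 in siMena against 6.34 and 4.49, and 5.96 and 4.24 in siControl against 7.36 and 5.07. On the log2 scale the median difference averaged -0.28 and was negative in 6 of 6 libraries (exact permutation p = 0.03125), and on assembled chromosomes it was -0.22 (p = 0.03125, exact permutation). In untreated cells, as a description, the medians were 7.13 and 5.56 for members and 8.28 and 6.42 for others.

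The lower folds came with more tags, not fewer, again at listed regions only. The median number of tags at a member's summit was 35 and 30 in siMena11a, 20 and 101 in siMena, and 31 and 31 in siControl. At other regions it was 27 and 21 in siMena11a, 16 and 22 in siMena, and 23 and 21 in siControl. The log2 ratio averaged 0.73 and was positive in 6 of 6 libraries (exact permutation p = 0.03125). Without the contig it was 0.23 (exact permutation p = 0.0625), with 34 and 24 tags at members in siMena11a, 19 and 22 in siMena and 29 and 25 in siControl, and a tie at 22 in siMena replicate 2. The size of this difference therefore rested in large part on the contig, and the median of 101 in siMena replicate 2 on its 6 regions.

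The local background at listed regions was also higher at members, by more than the tags were. Its median at members was 4.2 and 5.84 tags in siMena11a, 2.71 and 31.7 in siMena, and 4.06 and 5.25 in siControl. At other regions it was 2.46 and 3.50 in siMena11a, 1.62 and 3.82 in siMena, and 2.24 and 3.18 in siControl. The log2 ratio averaged 1.15 and was positive in 6 of 6 libraries (exact permutation p = 0.03125), and it was 0.62 on assembled chromosomes (exact permutation p = 0.03125). Without siMena replicate 2, whose members were mostly of the contig, it was 0.77 over 5 libraries (exact permutation p = 0.0625, the smallest that 5 libraries allow). Members were chosen for having other regions nearby, whose tags could enter this background, so the test is not independent of the rule. The same holds for the fold, which is computed from the background.

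The local background at listed regions was graded by cluster size. In siMena11a replicate 1 its median, as a multiple of the genome-wide background, was 4.77 in clusters of 5 or more, 3.54 in clusters of 3 to 4, 3.22 in pairs and 2.66 at single regions. In siControl replicate 1 the values were 4.34, 3.10, 2.80 and 2.29, and in untreated replicate 1, as a description, 5.74, 3.98, 3.53 and 2.82. Median folds ran the other way in siMena11a replicate 1, at 6.88, 7.14, 7.43 and 8.33. By the rule every member has another region within 12.5 kb, and tags of neighbouring regions could enter the local background, whose window none of the sources used here gives. Set side by side at like nearest distances, members whose nearest region lay over 5 and up to 12.5 kb away had a multiple of 3.72 in siMena11a replicate 1 and 3.26 in siControl replicate 1, against 2.79 and 2.48 for other regions at that distance. The 6 contig members, with a smallest gap of 6668 bp, are among these 61 members, and no value without them was computed. Members also share a cluster with more regions by the rule, so a like nearest distance is not a like neighbourhood. For nearest distances of 2.5 kb or less the multiples were 5.99 and 5.12 for members, against 4.36 and 3.61 for others. The part of neighbouring regions in these values was not tested further.

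**Figure D5:**
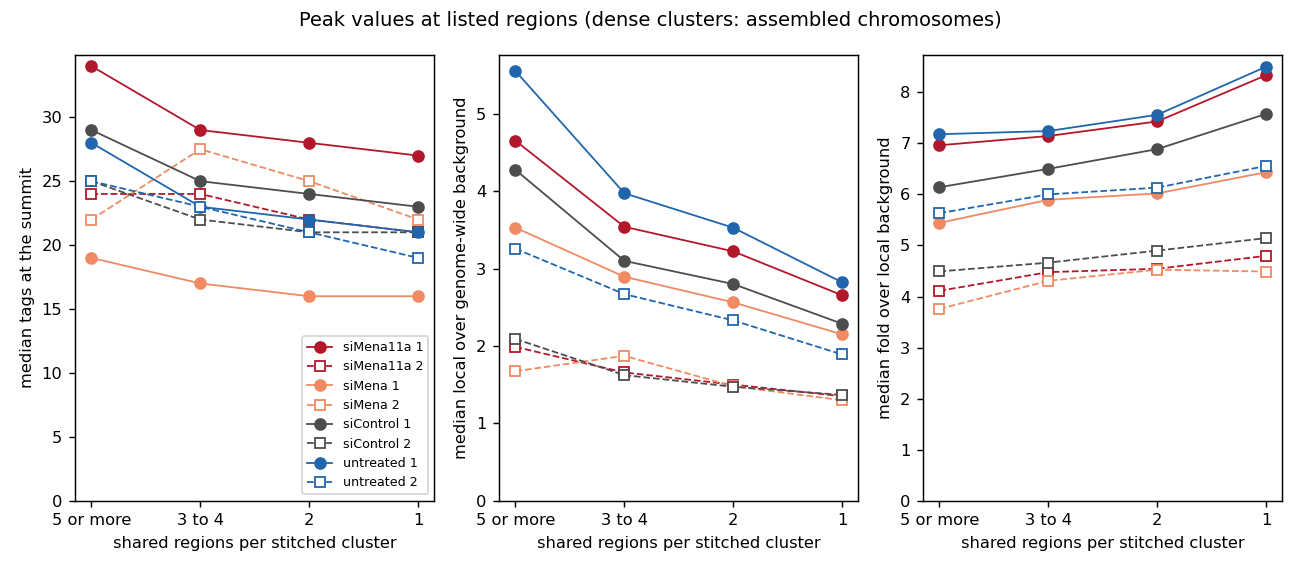
Median tags at the summit, median local over genome-wide background and median fold over local background, by the number of regions in the stitched cluster, for each library at the regions it lists, with clusters of 5 or more taken on assembled chromosomes. Background rises and fold falls from single regions towards clusters of 5 or more in nearly all libraries, and siMena replicate 2, with 5 such members listed, departs from the order.

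Because members had lower untreated folds, they were also compared with other regions of like untreated fold, in 10 strata. There members were listed more often in all 6 libraries: 99.2% and 14.6% in siMena11a, against 93.1% and 8.71% of others, 67.7% and 8.46% in siMena against 52.8% and 2.48%, and 94.6% and 23.1% in siControl against 84.7% and 17.6%. The mean difference was 8.06 points (exact permutation p = 0.03125), and 5.66 points on assembled chromosomes (exact permutation p = 0.03125). The lowest stratum held 36 of the 130 members, and there 44.4% of members were listed in siMena replicate 1, against 28.6% of others. The result depended on how regions were matched: in strata of the untreated score, which ranks peaks by their q, the mean difference was 1.42 points (exact permutation p = 0.25), and with a gap of 25000 bp and strata of fold it was 2.38 points (exact permutation p = 0.09375). At equal fold, a region with a higher local background has more tags at its summit, by the definition of the fold.

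Summits of members lay close to their place in untreated cells, as those of other regions did. The median distance from a member's summit to its summit in untreated replicate 1 was 28 and 23 bp in siMena11a, 39 and 32 bp in siMena, and 26 and 48 bp in siControl. Other regions had 30 and 39 bp, 38 and 41 bp, and 31 and 38 bp in the same order of libraries. In the replicate 1 lists a few peaks ran across neighbouring members: 6 members of siMena11a, 2 of siMena and 4 of siControl lay under such peaks, and none did in the replicate 2 lists or in untreated cells.

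The ranking inside clusters was partly kept in the replicate 1 lists. The strongest region of a cluster in untreated cells was also the strongest in 16 of 23 clusters in siMena11a replicate 1, 14 of 23 in siMena replicate 1 and 17 of 23 in siControl replicate 1. Among clusters with any listed member it was the strongest in 4 of 9 in siMena11a replicate 2, 2 of 5 in siMena replicate 2 and 7 of 16 in siControl replicate 2. A cluster's only listed member counts as its strongest, so these replicate 2 counts largely reflect listing and cannot show a kept ranking. This was so in clusters 1, 6, 14, 15, 22 and 23 of siControl replicate 2, each with 1 listed member. All members of a cluster were listed in 22 and 2 clusters in siMena11a, 4 and 1 in siMena, and 17 and 2 in siControl.

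Among members 1 region changed between the siRNA groups by the count used here, and no dense cluster changed as a whole. A region was gained where both libraries of the first group listed it and neither library of the second did, and lost in the opposite case. For a whole cluster this requires every member listed in both libraries of a group. In replicate 2 all members were listed in only 2 clusters of siMena11a, 1 of siMena and 2 of siControl. Most clusters could therefore not count as changed as a whole with these lists. With 2 libraries against 2, a region has no test, and the smallest exact p is 0.333. Both comparisons with siControl share its libraries.

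For siMena11a against siControl, 0 of 130 members were gained (0.0229% of all shared regions) and 0 were lost (0.0516%). The group means were 56.9% ± 59.8 of members listed in siMena11a and 58.8% ± 50.6 in siControl (SD, n = 2 each), a difference of -1.92 points (exact permutation p = 1). Within replicate 1, 6 members were listed in siMena11a only, 0 in siControl only and 123 in both. Over all shared regions, 7.47% were in siMena11a only and 1.63% in siControl only. Within replicate 2, 2 members were listed in siMena11a only, 13 in siControl only and 17 in both. Over all shared regions these shares were 1.86% and 13.8%. The direction thus turned between replicates at members, as it did over all shared regions. The difference of the means ran from -44.2 to 40.4 points when each library was left out in turn. At members listed in both, the median log2 ratio of the folds was 0.16 in replicate 1 and -0.15 in replicate 2, near the 0.13 and -0.20 of other regions.

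For siMena against siControl, 0 members were gained (background 0%) and 0 were lost, where 2.4% of all shared regions were lost. A count of 0 among 130 allows a share of up to 2.31% by the limit of 3 counts, just below the background. The exact interval ends at 2.80%, above the background. The 2 limits fall on either side of it, so at this number of members the count does not clearly set members apart from the background. The group means were 38.1% ± 41.9 in siMena and 58.8% ± 50.6 in siControl (SD, n = 2 each), a difference of -20.8 points (exact permutation p = 0.667) that ran from -56.5 to 15.0 points when each library was left out. Within replicate 1, 0 members were in siMena only, 35 in siControl only and 88 in both, and within replicate 2 the counts were 0, 19 and 11. Over all shared regions, 0.820% and 27.4% were in siMena only and siControl only in replicate 1, and 0.132% and 21.9% in replicate 2. The median log2 ratio of the folds was -0.33 and -0.21 at members and -0.31 and -0.45 at others. In replicate 2 the 6 contig members were among the 11 listed in both, and no median without them was computed. The 5 on assembled chromosomes had folds of 4.28, 3.43, 3.95, 3.76 and 3.64 in siMena. In siControl replicate 2 these were 6.36, 5.01, 7.24, 4.82 and 3.66, in the same order of regions. The siMena lists were shorter than the siControl lists in both replicates, with 14678 and 1020 peaks against 27304 and 5231, and the part of list length in these differences was not tested beyond the shortened lists described in the closing section.

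For siMena11a against siMena, 1 member was gained, or 0.769% of members against a background of 0.539%, and 0 were lost (background 0%). That member, 493 bp wide, opens cluster 17 on chromosome 17, from 70403540 to 70404032. Its folds were 7.10 and 3.97 in siMena11a, 4.28 in siControl replicate 1, and 4.87 and 6.67 in untreated cells, and it was listed in neither siMena library nor in siControl replicate 2. It was listed in siControl replicate 1 as well, so the gain is over siMena only. The group means were 56.9% ± 59.8 in siMena11a and 38.1% ± 41.9 in siMena (SD, n = 2 each), a difference of 18.8 points (exact permutation p = 0.667) that ran from -23.5 to 61.2 points when each library was left out. The member was no longer gained where a peak had to cover at least 50% of a region. Within replicate 1, 41 members were in siMena11a only, 0 in siMena only and 88 in both, and within replicate 2 the counts were 9, 1 and 10. Over all shared regions, 32.7% and 0.264% were in siMena11a only and siMena only in replicate 1, and 10.2% and 0.327% in replicate 2.

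Transfection with the non-targeting pool can be set against untreated cells as a description only, since the untreated lists chose the members. Both siControl lists missed 7 of 130 members, or 5.38%, against 9.83% of all shared regions. These 7 lay in clusters 6, 7, 11, 12, 15 and 22, and 6 of them were listed in siMena11a replicate 1 and in no other transfected list. At members listed in both, the median log2 ratio of a library's fold to that of the untreated library of the same number was -0.06 and -0.73 in siMena11a, -0.45 and -0.60 in siMena, and -0.22 and -0.63 in siControl. Other regions had -0.07 and -0.88, -0.51 and -1.07, and -0.20 and -0.69 in the same order. Members were thus below untreated cells in every transfected library at the median, as other regions were, and most of all in replicate 2. In siMena replicate 2, 6 of the 11 listed members were on the contig, and no median without them was computed. The 5 on assembled chromosomes had folds of 4.28, 3.43, 3.95, 3.76 and 3.64 there. In untreated replicate 2 these were 11.0, 5.21, 11.0, 7.73 and 5.61, in the same order of regions.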

How the data were processed

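Chromatin accessibility was measured by ATAC-seq in 8 libraries of H1650 cells. Peaks were called on hg19, and the submitters' processing notes name MACS2 2.2.5, Bowtie2 2.3.4.2, FastQC 0.11.5 and SAMtools 1.7. None of the sources used here gives trimming, duplicate removal or shifting of reads. The authors deposited a list for each library. The deposited score of a peak is 10 times its −log10 q, rounded down, in 99.98% or more of the rows of a list. The deposited fold is the ratio of summit tags plus 1 to local background plus 1. The deposited −log10 p and −log10 q come from the authors' peak caller, and the lists end near a q of 0.01.

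Distinct intervals were merged, and a region was listed where it shared 1 bp or more with a peak. The files give no read totals. Summit tags and local background were recovered from the deposited fold and −log10 p, within 0.001, for 100.0% of rows. Tag and background results, and strata by score, were added after the data were seen. A region with several summits took the values of its strongest one. Code was tested on simulated data. Coordinates count from 1. The members, the naming rule (10 clusters by region number, 10 by summed fold, the most and least listed among clusters of 8 or more regions, of which there was 1, and up to 5 gained and 5 lost members per comparison) and the lists were chosen with earlier results of these data known. Genes, markers and gene lists needed an hg19 annotation and were not analysed here. The alternatives tried were other gaps, cluster sizes, overlaps, scores, strata and list lengths, means in place of medians, assembled chromosomes only, each library left out and a replicate block. The work used pandas 2.3.3, SciPy 1.17.1 and numpy 2.4.6 under Python 3.11.15, with matplotlib 3.10.9 for plots.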

Additional observations from a re-analysis of the deposited data

Results flagged for a closer look

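Inside the spans of the dense clusters, 8 merged regions were listed in at least 1 transfected library and in neither untreated library, which is what drew attention to them, since the comparisons above use only regions that both untreated lists share. They lay in 4 clusters. Of the 8, 6 were in 1 transfected list each and 2 were in more. By library, 3 and 1 were listed in siMena11a replicates 1 and 2, 0 and 2 in siMena, and 4 and 1 in siControl. The region in the most lists, 3, was on the contig of cluster 8, from 86290 to 86522, where replicate 2 of siMena11a, of siMena and of siControl gave folds of 2.38, 2.31 and 2.14. The highest fold was 5.43, in siControl replicate 1, at chromosome 5 from 43010820 to 43011085 in cluster 23. No group listed any of the 8 in both of its libraries, so none counts as gained.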

How the results depend on the processing

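Of the 5 comparisons of members with other regions, the difference within strata of fold, the lower fold, the higher tags and the higher local background kept their direction under every setting tried, and the listing difference without strata did not. A gap of 5000 bp left 5 members in 1 cluster. There the listing difference was -5.16 points, that within strata of fold 3.47, the log2 fold difference -0.46, the tag ratio 0.65 and the background ratio 1.47, none past the threshold, and both siMena11a minus siControl and the share gained in siMena11a against siMena were 0. A gap of 25000 bp gave 617 members in 109 clusters, with listing at -1.33 and strata at 2.38. Clusters of 3 or more regions gave 1122 members and listing at -0.965. Clusters of 10 or more left 11 members, with listing at -0.0113, strata at 7.03, log2 fold at -0.31, tags at 0.33 and background at 0.99, while siMena11a minus siControl and the same gain were 0. On assembled chromosomes the tag ratio was 0.23. A peak covering 50% of a region gave a listing difference of 5.22, now past the threshold, and a gain of 0.

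A score of 87 or more in every list left 12 members in 2 clusters, with strata at 2.76, log2 fold at -0.22, tags at 0.29 and background at 0.65, none past the threshold. There siMena11a minus siControl was 0, 8.33% of members were lost in siMena against siControl, and the gain in siMena11a against siMena was 0. The share lost over all shared regions was not computed in that setting. With the transfected lists shortened to 1020 peaks, strata were at 2.63, log2 fold at -0.36, tags at 0.99 and background at 1.65, each with an exact permutation p of 0.0625, and all 3 differences between siRNA groups and the gain were 0. Strata by score gave 1.42. The causes of these changes were not tested, except that fewer members or libraries are left by construction in the settings that name a number of them.

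Leaving out each library in turn gave listing differences of 0.985 to 3.83 points, strata of 4.96 to 8.58, log2 folds of -0.44 to -0.24, tag ratios of 0.30 to 1.01 and background ratios of 0.66 to 1.60. With 5 transfected libraries the smallest p is 0.0625, so those tests cannot pass. Without untreated replicate 1 or 2 the rule, applied to the list that remained, gave 427 and 1004 members, and without replicate 1 the strata gave 5.21 (exact permutation p = 0.09375). The differences between groups ran from -44.2 to 40.4 for siMena11a minus siControl, -56.5 to 15.0 for siMena minus siControl and -23.5 to 61.2 for siMena11a minus siMena. The share gained ran from 0 to 4.62%, 0 to 0.234% and 0.199% to 30.8% in the same order, and the share lost from 0 to 10.0%, 0 to 26.2% and 0 to 0.769%. Where a transfected library was left out, its group had 1 library, so 1 list decided the count for that group. These shares were not computed over all shared regions, so they cannot be read as changes particular to members.

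Pairing libraries by replicate number, as a block, left the 3 differences at -1.92, -20.8 and 18.8 points, with exact p-values of 1, 0.5 and 0.5, where 0.5 is the smallest a pair of blocks allows. The deviations of same-numbered libraries correlated at 0.04 for siMena11a with siMena, 0.44 for siMena11a with siControl and 0.05 for siMena with siControl. A correlation over regions leaves out a shift common to all regions, so it cannot decide whether the numbers pair the libraries. Of the shared regions, 82.3% in siMena11a and 59.8% in siMena were in replicate 1 only, against 0.0229% and 0.0803% in replicate 2 only. The p-values are therefore given both without and with the block. On assembled chromosomes the transfected replicate 2 lists hold 5 to 24 members, which limits the precision of their medians and shares.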

Other observations

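Of the 46 outermost members of the clusters 100% and 13.0% were listed in siMena11a replicates 1 and 2, against 98.8% and 15.5% of the 84 inner ones. The shares were 76.1% and 4.35% of outermost against 63.1% and 10.7% of inner members in siMena, and 97.8% and 23.9% against 92.9% and 22.6% in siControl. Outermost members were listed more often in 4 of the 6 libraries, which was not tested. The 2 outermost members listed in siMena replicate 2 were the ends of the contig cluster, and these shares were not computed without the contig. A further 12 regions inside the spans were in 1 untreated list only, 4 of them in replicate 1. One, in cluster 14 on chromosome 3 from 134076665 to 134077192, was in untreated replicate 1 but not in replicate 2, and had folds of 8.33 in siMena11a replicate 1, 7.10 in siMena replicate 1, 6.58 in siControl replicate 1 and 6.44 in untreated replicate 1. Another, on the contig of cluster 8 from 82837 to 83258, was absent from untreated replicate 1 and listed in all 6 transfected libraries, with folds of 3.18 and 2.84 in siMena11a, 2.81 and 2.55 in siMena, 3.17 and 3.11 in siControl, and 2.63 in untreated replicate 2.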
